A study of Mus musculus with 4 samples.

Results

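Integrins are cell surface adhesion receptors built from 1 alpha and 1 beta chain, and the genes described here encode the chains that leukocytes use most, together with Cd44, the gene of a receptor for the matrix polymer hyaluronan. They were chosen by symbol: the rows named Itgal, Itgam, Itgax, Itgb2, Itgb1, Itgb7, Itga4, Itgae, Itgav and Cd44 in each count table, 10 of 55367 genes. All 10 were present, and 9 passed the filter on low counts, among 11837 genes tested. The libraries were made from polyadenylated RNA of cells from mouse tumors of B16-F10, a melanoma line, and the labels describe a sort for CD45.2, carried by blood-derived cells, together with CD8. There were 2 libraries with WT in the title and 2 with KO. The series lists wild-type mice, Satb1 F/F; ThPOK-cre mice and Satb1 F/F; E8I-cre mice without saying which Cre line the KO libraries came from. Thpok-cre deletes in the CD4 lineage and E8I-cre in the CD8 lineage, while the study describes tumors grown under the skin of adult mice of mixed sexes. No agent was given to any group, and the labels do not say whether replicates came from separate animals, so that p-values measure only the spread between these libraries.

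Alpha and beta chains reach the cell surface only as pairs. The beta 2 chain, encoded by Itgb2, pairs with the alpha chains of Itgal (forming LFA-1, the main adhesion receptor of lymphocytes), Itgam (Mac-1, of macrophages, monocytes and neutrophils), Itgax (of dendritic cells and macrophages) and Itgad. The beta 7 chain of Itgb7 pairs with the alpha chains of Itga4, for homing to gut vessels, and of Itgae, which holds tissue-resident CD8+ T cells to epithelium. The beta 1 chain of Itgb1 pairs with many alpha chains, Itga4 and Itgav among them, and binds vessel walls and matrix. Cd44 is raised on T cells that have met antigen and is also carried by myeloid cells.

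The checks of the labels left both genotype and sort in doubt. Satb1 had 7 and 5 counts in WT 1 and WT 2 against 131 and 55 in KO 1 and KO 2, the reverse of what a deletion would give, although reads per exon were not analyzed here. For each unit of the summed T cell markers described next, Satb1 stood at 0.0259 and 0.0110 in WT 1 and WT 2 and 0.0120 and 0.00829 in KO 1 and KO 2, with overlapping groups. Xist, expressed in females, had 435 and 216 counts against 0 and 3, while the Y-linked Ddx3y had 0 and 0 against 188 and 81, so that sex, which the labels do not give, and group cannot be told apart. The summed normalized CPM (counts scaled to a common library size) of 10 T cell markers, which included Cd3e, Cd8a and Trac, lay between 80.7 and 112 for WT and between 1152 and 2066 for KO. Each of the 10 was higher in both libraries labeled KO than in both labeled WT, beside 25.3% of all genes tested. Of the 10, 9 were called higher at an adjusted p under 0.05 (edgeR), beside 0.574% of all genes tested called in either direction. The summed normalized CPM of 12 macrophage or monocyte markers, including Lyz2, Csf1r and C1qa, lay between 31993 and 38719 for WT and between 18287 and 25473 for KO. None of the 12 was past that threshold. The T cell sum was thus 0.252% and 0.288% of the macrophage sum in WT 1 and WT 2, and 11.3% and 4.52% in KO 1 and KO 2. Lyz2 made up 27.5%, 36.6%, 70.2% and 40.1% of the macrophage sum in library order, and without it the T cell sum was 0.348%, 0.455%, 37.9% and 7.56% of the rest. The marker genes of a CD8+ T cell sort were therefore present but summed below the macrophage or monocyte list in all 4 libraries. Every direction below is that of the libraries as labeled. Reads on genes numbered between 4017875 and 5382915 per library, at which 3 counts, taken as the floor of detection, corresponded to between 0.521 and 0.897 normalized CPM.

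**Figure D1:**
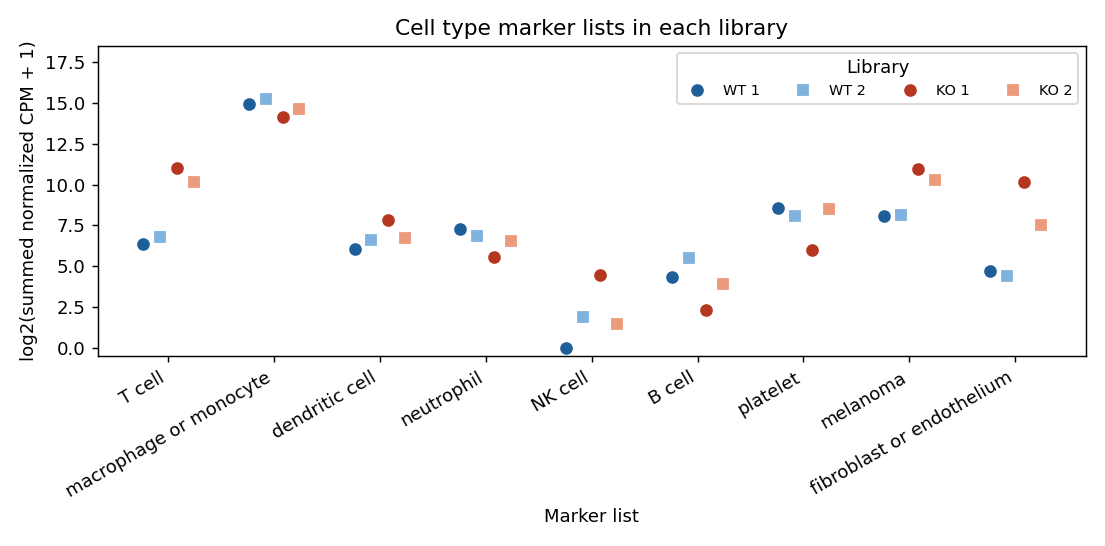
Summed normalized CPM of each cell type marker list (vertical axis, log2 of the sum plus 1) in each of the 4 libraries (points). The macrophage or monocyte list is the highest list in every library, and the T cell, dendritic cell, melanoma and fibroblast or endothelium lists are higher in both libraries labeled KO.

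The genes for 3 beta 2 partners lie on chromosome 7 of GRCm38/mm10, all on the plus strand: Itgal from 127296260 to 127335138, Itgam from 128062640 to 128118491 and Itgax from 128129547 to 128150657. The stretches just before Itgam and Itgax, neighbors with a myeloid pattern of use, are shown beside that of Itgb1 (chromosome 8, 128685654 to 128733200), the gene with the largest fitted rise. Each runs 5′ to 3′ on the plus strand from 160 to 11 bases before the RefSeq start (GRCm38.p6) and held no annotated exon. Capitals mark matches on either strand to GAGGAA, a core of the motif of PU.1, a myeloid transcription factor, or to GGGCGG, the GC box.

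Itgam, chr7:128062480-128062629: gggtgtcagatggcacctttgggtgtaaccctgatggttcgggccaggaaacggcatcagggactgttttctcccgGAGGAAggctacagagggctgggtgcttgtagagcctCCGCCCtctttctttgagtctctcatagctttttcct
Itgax, chr7:128129390-128129539: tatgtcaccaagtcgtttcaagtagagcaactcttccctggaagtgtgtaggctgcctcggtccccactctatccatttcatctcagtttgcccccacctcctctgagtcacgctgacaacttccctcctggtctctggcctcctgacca
Itgb1, chr8:128685494-128685643: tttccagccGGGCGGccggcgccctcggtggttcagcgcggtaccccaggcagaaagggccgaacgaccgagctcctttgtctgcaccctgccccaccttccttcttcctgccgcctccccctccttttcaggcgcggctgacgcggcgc

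The Itgam window held 1 match to GAGGAA and 1 to the GC box, that of Itgb1 held 1 GC box, and that of Itgax held neither. Over 32851 RefSeq promoter windows of the same length, 14.2% held GAGGAA and 27.6% the GC box. G and C made up 55.3% of the Itgam window and 54.0% of the Itgax window, against 70.0% of that of Itgb1. RefSeq windows were matched for 7 of the 10 genes, and Itgal, Itgb2 and Itgae had no entry in the set of promoter windows used.

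Across genes, levels were compared as normalized CPM per kb of exon. In the libraries labeled WT, Itgb2 stood first at 249 ± 10.9 CPM per kb (SD, n = 2), followed by Itgb7 at 113 ± 63.4, Cd44 at 63.0 ± 7.34, Itgam at 45.9 ± 11.6 and Itgb1 at 37.7 ± 13.1. Itgax and Itgal were lower, at 15.2 ± 3.14 and 10.3 ± 1.93, then Itgav and Itga4 at 3.39 ± 1.60 and 1.90 ± 1.48, while Itgae was last at 0.0269 ± 0.0380. The neighbors Itgam and Itgb1, and Itgav and Itga4, overlapped between libraries and could not be put in order, and the place of Itgam changes with the exon length used. In the libraries labeled KO, Itgb2 was again first at 214 ± 109 CPM per kb (SD, n = 2), but Itgb1 followed at 93.9 ± 9.11, overlapping Itgb7 at 81.1 ± 44.8. Cd44, which overlapped Itgb7, stood at 47.8 ± 6.68 and Itgam at 27.4 ± 1.92. Itgal, at 17.3 ± 3.72, overlapped Itgax at 12.998 ± 4.11, Itgav at 4.44 ± 0.927 overlapped Itga4 at 4.16 ± 3.14, and Itgae was last at 0.248 ± 0.351. Of the beta chains, Itgb2 and Itgb7 thus exceeded Itgb1 in both libraries labeled WT, with Itgb2 at 9.04 and 5.15 times the per-length level of Itgb1 in WT 1 and WT 2 and at 1.56 and 2.90 times in KO 1 and KO 2.

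**Figure D2:**
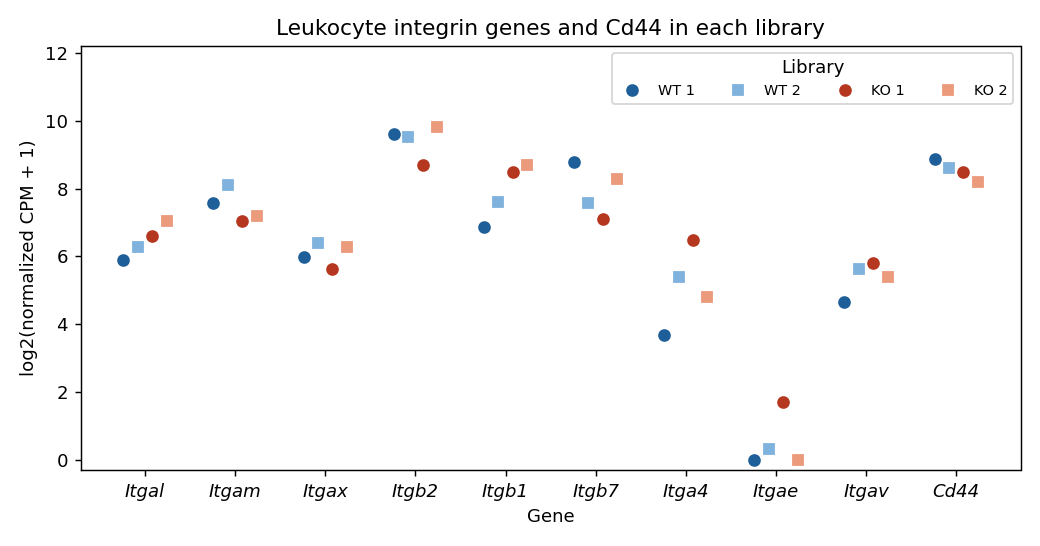
Normalized CPM of each of the 10 genes (vertical axis, log2 of CPM plus 1) in each of the 4 libraries (points, labeled WT in blue and KO in red). Itgae is the lowest gene in every library, Itgb1 is higher in both KO libraries, and Itga4 is spread within each group as widely as between them.

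The libraries labeled KO were set against those labeled WT, a contrast designed around deletion of Satb1 in which the Satb1 counts were higher under the KO label. Over all genes tested, 0.574% were past the threshold, an adjusted p of 0.05 in the quasi-likelihood test of edgeR. Of the 9 genes tested here, 0 were past it, and 1 (Itgb1) had an unadjusted p under 0.05, against 1619 of all 11837 genes. DESeq2 called 0 of the 9 as well. Itgb1, Itga4, Itgal and Itgav had fitted changes above 0 and Itgam, Itgb7, Cd44, Itgax and Itgb2 below 0, with a median log2 fold change of -0.22 beside one of 0.05 over all genes tested. Groups did not overlap with KO higher for 2 of the 9 genes, Itgal and Itgb1, where 25.3% of all genes tested did the same, and with KO lower for 2, Itgam and Cd44, beside 22.6%. These shares were near those of all genes.

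**Figure D3:**
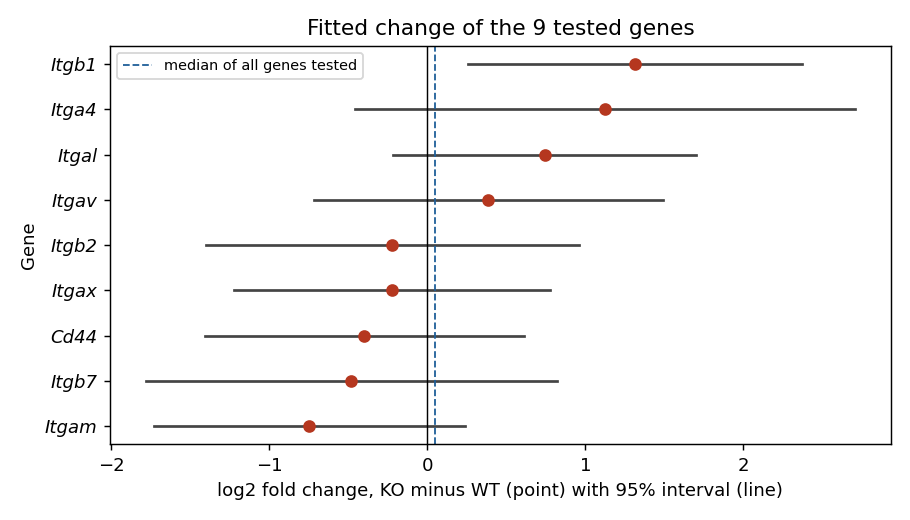
Fitted log2 fold change of KO minus WT (points) with its 95% interval (lines) for the 9 genes tested, in order of size; the dashed line is the median of all genes tested. The interval of Itgb1 lies above 0 without adjustment for the number of genes, and the other 8 intervals include 0.

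Itgb2, the chain common to all beta 2 integrins, had 2623 and 2993 counts in WT 1 and WT 2 and 2202 and 5121 in KO 1 and KO 2, or 784, 738, 417 and 889 normalized CPM. The libraries labeled KO lay on both sides of those labeled WT, with KO 2 at 2.13 times KO 1 (exact binomial 95% interval 2.03 to 2.24 for counting error only). The log2 fold change of -0.22 (SE 0.53, 95% interval from -1.40 to 0.96) did not pass (edgeR adjusted p = 0.884). It changed sign to 0.22 without KO 1 and to 0.0905 with scaling by library totals.

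Itgal, the alpha chain of LFA-1, had 197 and 312 counts in WT 1 and WT 2 and 509 and 754 in KO 1 and KO 2. In normalized CPM these were 58.9, 76.9, 96.4 and 131, both KO values above both WT values. The log2 fold change of 0.74 (SE 0.43, 95% interval from -0.22 to 1.70) did not pass (edgeR adjusted p = 0.471). T cells carry much LFA-1, and the T cell marker sum was also higher in both libraries labeled KO, although it was higher in KO 1 than in KO 2 and Itgal was lower; its part in the value was not tested. For each unit of that sum there was 0.730 and 0.689 of Itgal in WT 1 and WT 2 and 0.0466 and 0.114 in KO 1 and KO 2. This fall was not particular to Itgal. The other tested genes described here were also lower per unit of that sum in both libraries labeled KO, with Itgam at 2.34 and 2.43 against 0.0632 and 0.125. In bulk RNA, more cells of a type and more RNA per cell cannot be told apart.

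Itgam, the alpha chain of Mac-1, had 633 and 1103 counts in WT 1 and WT 2 and 690 and 831 in KO 1 and KO 2. Its normalized CPM of 189, 272, 131 and 144 in the same order put both libraries labeled KO below both labeled WT. The log2 fold change was -0.75 (SE 0.44, 95% interval from -1.73 to 0.24, edgeR adjusted p = 0.476). The macrophage marker sum was also lower in both libraries labeled KO, and Itgam came to 0.592%, 0.702%, 0.714% and 0.566% of that sum in WT 1, WT 2, KO 1 and KO 2, with overlapping groups. Of the 12 markers 7 were lower in both libraries labeled KO than in both labeled WT, beside 22.6% of all genes tested. C1qa, C1qb and C1qc were among the 7, while Lyz2, Csf1r, Adgre1, Mertk and Cd14 overlapped. Without Lyz2, Itgam came to 0.816%, 1.11%, 2.40% and 0.946% of the sum, still overlapping but highest in KO 1, a value added after seeing the data. The neutrophil marker sum was 154 and 115 against 47.1 and 91.5, nearly all of it Csf3r, while the other 5 markers, S100a8, S100a9, Cxcr2, Ly6g and Retnlg, had between 0 and 9 counts per library. Itgax, of dendritic cells and macrophages, had 208 and 339 counts against 256 and 440, or 62.2, 83.5, 48.5 and 76.4 normalized CPM, and the groups overlapped. Its log2 fold change of -0.22 (SE 0.45, 95% interval from -1.23 to 0.78, edgeR adjusted p = 0.856) became 0.061 without KO 1 and 0.081 with scaling by library totals.

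The level of Itgam depends on how its reads were counted. In GENCODE M21, Gm49368, another gene on the same strand, shares 3450 of the 5024 exon bases of Itgam, or 68.7%. The count tables have a row for Gm49368, with 0 counts in all 4 libraries. HTSeq by default sets aside reads that lie on exons of 2 genes as ambiguous, and between 166497 and 204235 reads per library were set aside; the mode was not stated and the gene models used in counting were not given. If only the 1574 unshared bases of Itgam could be counted, its level would be 120, 173, 83.0 and 91.7 CPM per kb in WT 1, WT 2, KO 1 and KO 2, in place of 37.7, 54.1, 26.0 and 28.7. Itgam would then stand above Itgb1 and Cd44 in both libraries labeled WT, overlapping Itgb7, and above Cd44 but overlapping Itgb1 and Itgb7 in those labeled KO.

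Among the alpha chains that pair with beta 2, the shares of Itgal and Itgam differed between the groups more than within them, while those of Itgax overlapped. Itgal made up 15.05% and 14.0% of the summed CPM per kb of Itgal, Itgam, Itgax and Itgad in WT 1 and WT 2 and 28.9% and 30.9% in KO 1 and KO 2. Itgam made up 63.2% and 64.9% against 51.2% and 44.5%, and Itgax 21.7% and 20.9% against 19.9% and 24.6%. The share of Itgal averaged 14.5% ± 0.713 (SD, n = 2) for WT and 29.9% ± 1.40 (SD, n = 2) for KO, and 0.333 is the smallest p that a two-sided exact permutation test can reach at this size. Per unshared base the mean share of Itgal was 6.05% for WT and 14.6% for KO, and that of Itgam 85.0% and 74.5%, with the groups apart in the same direction; the share of Itgax, 8.86% and 10.9%, then no longer overlapped either. These shares do not depend on how libraries were scaled. Itgad, a further partner, had 3 counts in WT 2 and 0 in the other libraries.

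**Figure D4:**
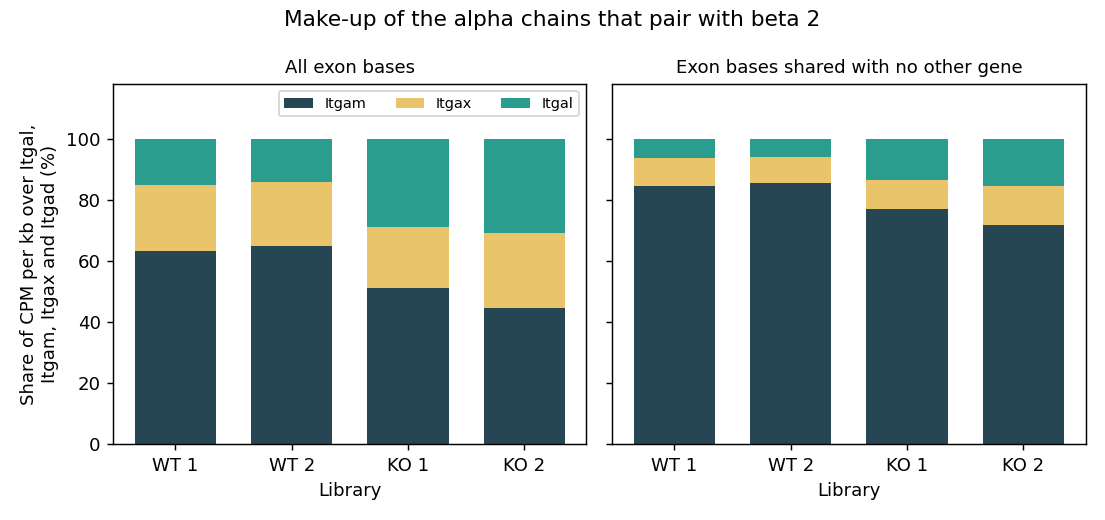
Share of summed CPM per kb (vertical axis, %) taken by Itgam, Itgax and Itgal in each library (bars), over all exon bases (left) and over exon bases that no other annotated gene shares (right). The Itgal share is larger in both libraries labeled KO under both lengths.

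Itgb1, the beta 1 chain, had 388 and 777 counts in WT 1 and WT 2 and 1886 and 2359 in KO 1 and KO 2, or 116, 191, 357 and 410 normalized CPM. The highest library labeled WT lay well below the lowest labeled KO. The log2 fold change of 1.32, a 2.49-fold difference (log2 SE 0.47, 95% interval from 0.26 to 2.37) had an unadjusted p of 0.0199 but did not pass (edgeR adjusted p = 0.273). Over 14 alternatives its log2 fold change ran from 0.95 to 1.68, always above 0, and its adjusted p in edgeR or DESeq2 from 0.0734 to 0.99994. Fibroblasts, melanoma cells and T cells all carry beta 1 integrins. The summed CPM of the fibroblast or endothelium list was 24.8 and 20.2 against 1150 and 185. That of the melanoma list was 271 and 281 against 2031 and 1230. The labels describe a sort for CD45.2 and CD8, yet both lists had counts in every library. The part of these lists in the Itgb1 value was not tested. In the fibroblast or endothelium list the collagen genes carried the difference, with Col3a1 at 2.09 and 0.246 normalized CPM against 726 and 79.4. The endothelial Pecam1 was at 15.3 and 15.5 against 13.3 and 21.5, and Cdh5 at 0.299 and 1.48 against 0.189 and 0.174. KO 1 had far more of this sum than KO 2, while Itgb1 in KO 2 was 1.15 times that in KO 1.

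Itga4, the alpha chain that pairs with beta 1 or beta 7 for entry into tissue, was the most uneven of the 9 tested genes. It had 40 and 167 counts in WT 1 and WT 2 and 471 and 156 in KO 1 and KO 2, or 12.0, 41.2, 89.2 and 27.1 normalized CPM. WT 2 was 3.44 times WT 1 and KO 2 was 0.304 times KO 1, both beyond counting error. The log2 fold change of 1.12 (SE 0.70, 95% interval from -0.46 to 2.71, edgeR adjusted p = 0.505) became 0.01 without KO 1 and 2.21 without WT 2. Its exons share 8.04% of their bases with Cerkl on the other strand, and Cerkl had 12, 72, 187 and 62 counts, between 0.300 and 0.431 times those of Itga4 in each library. Since counting is not stated to have used strand, the reads of Itga4 and Cerkl cannot be told apart there.

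Itgav, the alpha V chain that binds matrix proteins, had 81 and 197 counts against 289 and 234, or 24.2, 48.5, 54.7 and 40.6 normalized CPM, with overlapping groups. Its log2 fold change of 0.39 (SE 0.49, edgeR adjusted p = 0.762) became -0.0889 without WT 1. Itgav shares 5.90% of its exon bases with Gm13684 on the other strand, which had between 4 and 15 counts per library.

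Itgb7, the beta 7 chain, had 1464 and 769 counts in WT 1 and WT 2 and 724 and 1799 in KO 1 and KO 2. At 438, 189, 137 and 312 normalized CPM, each group held 1 high and 1 low library. The log2 fold change of -0.48 (SE 0.58, 95% interval from -1.78 to 0.82, edgeR adjusted p = 0.750) became 0.21 without WT 1. Itgb7 far exceeded its partners: per kb it was 185, 22.8, 7.20 and 58.2 times the sum of Itga4 and Itgae in WT 1, WT 2, KO 1 and KO 2. Itgb7 was low in KO 1, where Itga4 was highest, and high in WT 1, where Itga4 was lowest.

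Itgae, the alpha E chain known as CD103 and a marker of tissue-resident CD8+ T cells and of a dendritic cell subset, was nearly absent, with 0 and 1 counts in WT 1 and WT 2 and 12 and 0 in KO 1 and KO 2. KO 1 was the only library above 3 counts, at 2.27 normalized CPM, and the gene was not tested. The pooled counts of 12 against 1 gave a KO to WT ratio of 8.04 (exact Poisson, 95%) whose interval ran from 1.19 to 344, for counting error only, and rested on KO 1. In KO 1, where Itgae had 12 counts, Cd8a had 843, and in KO 2, where Itgae had 0, Cd8a had 733. The 8 dendritic cell markers summed to 64.9, 95.6, 225 and 103.3 normalized CPM, highest in KO 1, and their part in the Itgae counts was not tested. Of the 8, Flt3 counts were 0 and 1 against 31 and 0 in library order, and those of Cd209a 26, 66, 666 and 135, both highest in KO 1 like Itgae, and Clec9a had 1, 8, 17 and 11. Xcr1 (0, 14, 13 and 20), Zbtb46 (1, 4, 21 and 51) and Ccl22 (16, 28, 224 and 250) were highest in KO 2, Fscn1 had 3, 5, 68 and 53, and Batf3 was highest in WT 2 (170, 262, 150 and 75).

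Cd44 (chromosome 2, 102811141 to 102901665, minus strand) had 1546 and 1591 counts in WT 1 and WT 2 and 1881 and 1682 in KO 1 and KO 2, or 462, 392, 356 and 292 normalized CPM. The libraries of each group lay near each other, with WT 2 at 0.848 times WT 1 and KO 2 at 0.820 times KO 1. Both libraries labeled KO were below both labeled WT, but the groups overlapped when scaled by library totals, where the log2 fold change of -0.40 became -0.05. The SE was 0.45, and the 95% interval from -1.41 to 0.61 (edgeR adjusted p = 0.731) leaves room for a change in either direction.

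Among the 3 genes whose levels across the 4 libraries lay closest to those of Itgam were Blvra, of biliverdin reductase, and Gm49172, both with a root mean square distance of 0.0463 on the centered log2 scale, among 6218 genes with a mean CPM of at least 20. For Itgax the 3 closest were Rac2, a GTPase gene of blood cells, Nadk, an NAD kinase gene, and Mknk1, a protein kinase gene, at 0.0311, 0.0367 and 0.0391. With only 4 libraries such likeness is a description of these samples. No such genes were sought for Itgae, which failed the filter.

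The wider adhesion pathway was described through 4 lists. Of the 17 other integrin chains 14 had a count, 6 passed the filter and 0 were past the threshold (edgeR, with 1 at an unadjusted p under 0.05), with a median log2 fold change of -0.23. The most abundant were Itga5, the fibronectin receptor chain, at 260 and 202 normalized CPM against 36.7 and 225, Itgb5, a partner of alpha V, at 178 and 166 against 51.3 and 90.3, and Itga9 at 20.9 and 40.2 against 12.1 and 23.4. Itgb5 did not overlap between groups (log2 fold change -1.28, SE 0.46, edgeR adjusted p = 0.273), while Itga5 was low in KO 1 alone.

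Of 25 genes that switch integrins on, restrain them or tie them to the cytoskeleton, all were tested. At the threshold 1 rose and 0 fell, beside 0.574% of all genes called. An unadjusted p under 0.05 was found for 6, beside 1619 of all 11837 genes, and the median log2 fold change was -0.20 (edgeR). Groups did not overlap for 5 of the 25 with KO higher, where 25.3% of all genes tested did the same. They did not overlap for 9 with KO lower, beside 22.6% of all genes tested. The gene that rose was Skap1, an adaptor that links the T cell receptor to LFA-1, with 2.09 and 2.22 normalized CPM in WT 1 and WT 2 and 41.3 and 34.6 in KO 1 and KO 2, a log2 fold change of 4.12 (SE 0.58, edgeR adjusted p = 0.0269). It remained past the threshold in all 14 alternatives, with log2 fold changes from 3.98 to 4.45. The T cell markers moved the same way, and their part in the value was not tested. The most abundant genes were Flna, of an actin crosslinker that restrains integrins, Rap1b, a GTPase that activates them, and Tln1, of talin, which opens them, with log2 fold changes of -0.38, -0.20 and -0.42, none past the threshold; Flna and Tln1 were lowest in KO 1, at 422 and 233 normalized CPM.

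**Figure D5:**
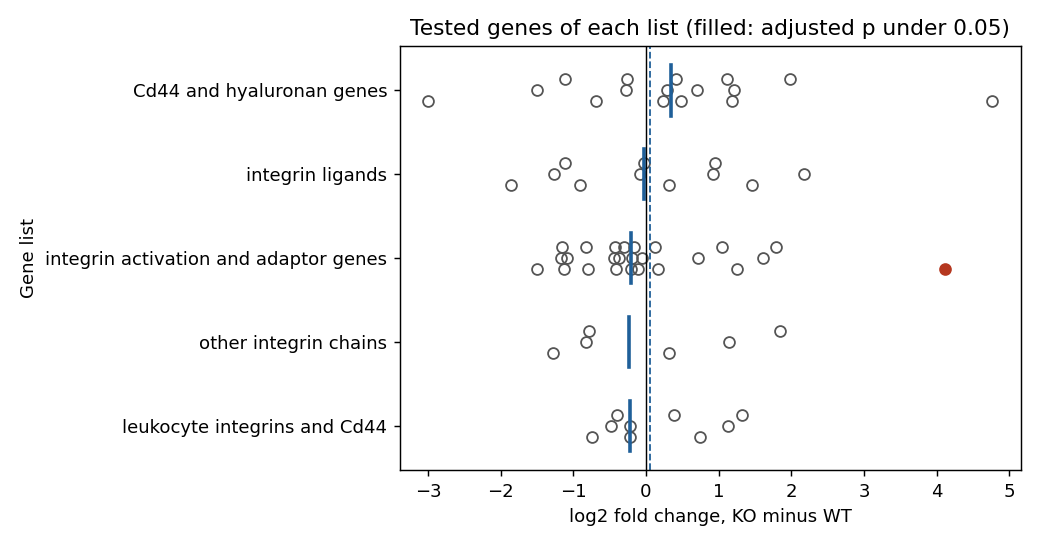
Log2 fold change of KO minus WT (horizontal axis) of each tested gene (points) in the 5 lists; filled points are past the adjusted p threshold, blue bars are list medians and the dashed line is the median of all genes tested. Skap1 is the filled point.

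Of 14 ligand genes 11 were tested and 0 were past the threshold (edgeR, 3 at an unadjusted p under 0.05), with a median log2 fold change of -0.03. Spp1, of osteopontin, had 949 and 543 normalized CPM against 579 and 1275, while Thbs1, of thrombospondin, had 461 and 297 against 599 and 833. Fn1, of fibronectin, was at 264 and 442 against 533 and 823, so that both matrix genes were above WT in both libraries labeled KO, without passing (log2 fold changes of 0.92 and 0.94, edgeR adjusted p = 0.446 and 0.447). Of the LFA-1 ligands, Icam1 had a log2 fold change of -0.03 with overlapping groups, while Icam2 and F11r were lower in both libraries labeled KO, at -0.91 and -1.27, without passing (edgeR adjusted p = 0.986, 0.449 and 0.317 in that order).

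Of 20 symbols related to Cd44 and hyaluronan, 19 were in the tables, 16 were tested and 0 were past the threshold (edgeR, 3 at an unadjusted p under 0.05), with a median log2 fold change of 0.35. Cd74, the invariant chain and a partner of CD44 in signaling, was the most abundant, at 14941 and 23529 normalized CPM against 12242 and 11745. Msn, of moesin, which ties CD44 to actin, had 502 and 580 against 397 and 880, and Srgn, of serglycin, a proteoglycan that binds CD44, had 400 and 376 against 748 and 283. Each of these 3 genes missed the threshold, and among them Cd74 alone kept its groups apart. The lowest p-values of the list were those of Hmmr, of a hyaluronan receptor, and Hyal1, of a hyaluronidase, both named after their values were seen. Hmmr had 0 and 3 counts against 88 and 36 (edgeR adjusted p = 0.125) and was past the threshold in 6 of 14 alternatives. Hyal1 had 83 and 29 counts against 6 and 16 (edgeR adjusted p = 0.175) and was past it in 5, but it shares 50.8% of its exon bases with Naa80 on the same strand, which leaves its counts uncertain.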

How the data were processed

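RNA-seq counts of 4 libraries were used, 2 per group as titled. Each table that the authors deposited holds raw read counts by gene symbol, not normalized; the submitters' processing notes name HISAT2 2.1.0, mm10 and HTSeq 0.11.0. Annotation, strand setting and trimming were not given in the sources used here. HTSeq summary lines were left out of library sizes; genes held between 20.5% and 28.8% of all reads. Counts were analyzed with edgeR 4.0.16 in R 4.3.3: filterByExpr, TMM factors and the quasi-likelihood F test with group as the only term, Benjamini-Hochberg adjusted over all genes tested, threshold 0.05. The SE of a log2 fold change was its size over the square root of F, and 95% intervals used the test's degrees of freedom. Lengths and positions came from GENCODE M21 (GRCm38). Scripts were tested on simulated data. Matplotlib 3.10.9 drew the plots.

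The genes, lists and tests were chosen with earlier results of these data known. Named list genes were those past the threshold and the 3 most abundant tested genes of each list; Icam1, Icam2, F11r, Hmmr, Hyal1, Itgad and the marker genes were chosen after their values were seen. One gene among those nearest to Itgam is not reported here. Alternatives were other scaling factors, filters, DESeq2 1.42.0, thinned counts, a replicate block, gene classes removed, other gene lengths, and each library left out. The crossed block, the unshared exon length and the macrophage list without Lyz2 were added after seeing the data.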

Additional observations from a re-analysis of the deposited data

How the results depend on the processing

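The count of 0 among the 9 tested genes held in all 14 alternatives, and 5 of the 9 kept their direction in all of them; log2 fold changes of Itgax and Itgb2 reversed to 0.081 and 0.0905 with library totals, and with 1 library left out those of Itgax ran from -0.63 to 0.061 (above 0 without KO 1), of Itgb2 from -0.90 to 0.22 (above 0 without KO 1), of Itgb7 from -1.23 to 0.21 (above 0 without WT 1) and of Itgav from -0.0889 to 0.92 (below 0 without WT 1). The cause was not tested. Scaling by library totals moved the median of all genes from 0.05 to 0.38. Genes called over the whole table, 68 in the reported fit, numbered 136 with library totals, 583 without a filter, 127 with the stricter filter, 416 in DESeq2, 122 in thinned counts, 215 with the replicate block and 647 with the crossed block, and between 113 and 1249 with 1 library left out, where the lone library is assumed to vary like the other group. Same-numbered libraries deviated with a correlation of -0.19, so that the numbers were not taken as pairs. Of the lists, other integrin chains had 0 to 2 calls and activation genes 1 to 7 with 1 library left out, and activation genes 3 with the crossed block. Ligands had 2 calls without a filter and 1 with the crossed block. Cd44 and hyaluronan genes had 2 without a filter, 2 in DESeq2, 1 with the replicate block, 4 with the crossed block and 0 to 6 with 1 library left out. The 4 genes whose groups did not overlap became 3 with library totals. The biological coefficient of variation was 42.5%, and the SEs of the 9 fitted log2 fold changes ran from 0.43 to 0.70.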
